A study of Homo sapiens with 12 samples.

Results

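The chemokines, interleukins and colony stimulating factors of MDA-MB-231 cells were examined as a family. Members were taken by symbol: every CXCL, CCL or CX3CL gene and every IL gene written with a number and at most a letter from A to F, except IL11, together with LIF, CSF1, CSF2 and CSF3. This gave 49 of the 19907 gene symbols (12 CXCL, 9 CCL, CX3CL1, 23 interleukins, and LIF with the 3 CSFs). A mean normalized count of at least 20 over the 12 libraries was reached by 25 members, and fold changes are given for these alone. The other 24 had a mean of 15.7 or less, and 7 of them had fewer than 10 reads over all libraries and were not tested.

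MDA-MB-231 is an established human triple-negative breast cancer (TNBC) cell line of mesenchymal character that expresses the glucocorticoid receptor (GR). The compared cells carried wt-GR or S134A-GR, in which CRISPR editing had put alanine in place of a serine of GR, Ser134, that is phosphorylated after p38 MAPK is activated. Both were kept for 18 h in starvation medium (IMEM with 1% DCC, which is serum stripped with charcoal) before vehicle or TGFβ1 was added (10 ng/mL, 6 h), so that the groups were wt-GR vehicle, wt-GR TGFβ1, S134A-GR vehicle and S134A-GR TGFβ1, each with 3 libraries of RNA-seq. The S134A-GR cells were clone #1, a single clone, and the wt-GR cells were likewise a single clone that had come through the same procedure without the edit. A difference between the lines is therefore a difference between 1 clone and 1 other clone, and the substitution cannot be told apart from what else separates these clones. No source says that replicates came from separate cultures, so p-values measure the spread between these samples, which may be technical.

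Chemokines are small secreted proteins that direct the movement of leukocytes by binding G protein coupled receptors. The CXC members CXCL1, CXCL2, CXCL3 and CXCL8 bind CXCR2 and draw neutrophils, and the CC members act largely on monocytes, eosinophils and lymphocytes. Interleukins and colony stimulating factors act through cytokine receptors on the growth and activation of immune cells, and tumor cells of the breast are a known source of several of them. Many of these genes are controlled by NF-κB, whose activity ligand-bound GR is known to restrain.

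Recovered depth was 56.4 to 129.8 (in units of 1e6 reads) per library, at which 3 reads correspond to 2.15 to 4.89 normalized counts (counting error only). These totals are above the average depth that the study's methods state, and whether both ends of a pair were counted is not given, so the floor may rest on fewer fragments than reads. Between libraries of a group, log levels had r = 0.991 to 0.996, and between groups 0.954 to 0.990. The line markers VIM, CD44, EGFR and MSN were high in every library, and ESR1 was at 7.32 or less. ERBB2 and EPCAM, taken here as low markers, were not near 0, with 7229 to 10590 and 318 to 1093 normalized counts, and PGR was not among the symbols. EPCAM differed by line, with means of 1024 in wt-GR vehicle, 1018 in wt-GR TGFβ1, 378.2 in S134A-GR vehicle and 339.5 in S134A-GR TGFβ1. Of 8 leukocyte markers 5 were among the symbols, and their summed level was 25.8 to 60.2 normalized counts, with group means of 56.8 in wt-GR vehicle, 42.0 in wt-GR TGFβ1, 39.0 in S134A-GR vehicle and 37.7 in S134A-GR TGFβ1. The defining leukocyte gene PTPRC did not exceed 9.8 and was at 0 in 4 libraries, and CD3D was at 0 in 9. LYZ, at 13.04 to 30.4, and CD14, at up to 37.5, were at 0 in no library, and CD14 moved with the line, with means of 30.4 in wt-GR vehicle, 14.7 in wt-GR TGFβ1, 4.62 in S134A-GR vehicle and 7.14 in S134A-GR TGFβ1. The endothelial markers PECAM1, CDH5 and VWF summed to 928 to 2032, with group means of 1941 in wt-GR vehicle, 1485 in wt-GR TGFβ1, 1524 in S134A-GR vehicle and 1045 in S134A-GR TGFβ1. Of these, CDH5 was higher in wt-GR (means of 187 and 215 under vehicle and TGFβ1) than in S134A-GR libraries (19.0 and 28.7), and VWF was lower with TGFβ1 in wt-GR (396 to 219) and in S134A-GR libraries (364 to 181). The part of these markers in the results was not tested.

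A pair of genes from the same chemokine cluster was called in opposite directions between the lines, and their promoters are printed for that reason. CXCL1 and CXCL2 lie on chromosome 4 with CXCL3 between them, CXCL1 was lower and CXCL2 higher in S134A-GR than in wt-GR cells, and their promoters are nearly alike. CCL20, the member that rose most with TGFβ1, is shown beside them. Each sequence holds the 150 bases before the RefSeq start of the gene (build GRCh38.p14, read 5′ to 3′ on the strand of the gene), and the capitals mark a match to the κB motif that NF-κB binds. They lie at chr4:73869243-73869392 on the plus strand for CXCL1, chr4:74099196-74099345 on the minus strand for CXCL2 and chr2:227813692-227813841 on the plus strand for CCL20.
CXCL1: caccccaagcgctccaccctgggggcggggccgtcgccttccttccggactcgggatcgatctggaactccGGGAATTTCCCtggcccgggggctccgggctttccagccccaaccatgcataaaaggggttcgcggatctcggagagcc
CXCL2: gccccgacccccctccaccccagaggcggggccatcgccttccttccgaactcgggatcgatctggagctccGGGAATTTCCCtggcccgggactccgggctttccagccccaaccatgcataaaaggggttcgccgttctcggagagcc
CCL20: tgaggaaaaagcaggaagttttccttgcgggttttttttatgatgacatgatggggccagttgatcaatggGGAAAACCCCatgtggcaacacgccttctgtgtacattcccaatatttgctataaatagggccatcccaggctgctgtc

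CXCL1 and CXCL2 shared 88.7% of aligned positions in this stretch, CXCL1 and CXCL3 88.1%, and CXCL2 and CXCL3 86.1%, whereas CCL20 shared 42.5% with CXCL1. The κB matches of CXCL1 and CXCL2 are the same run of letters, counted on both strands as a pair of overlapping matches that begin 79 and 78 bases before the start in CXCL1 and a base nearer in CXCL2. RefSeq promoters were at hand for 18 of the 25 members. In the 250 bases before the start, 9 of the 18 held a κB match on either strand (CCL20, CXCL1, CXCL2, CXCL3, IL12A, IL17D, IL23A, IL32 and IL6), and 5.21% of 35116 promoters of the same length did. Only full matches to GGGRNWYYCC were counted (R is A or G, W is A or T, Y is C or T, N is any base). CXCL8 was not counted, though its promoter holds tggaatttcc, which departs from the pattern in the first letter. The nearly alike promoters of CXCL1, CXCL2 and CXCL3 were counted separately. The AP-1 motif TGANTCA was found in 5 of 18 and in 6.57% of all, and the SMAD letters CAGAC in 7 of 18 and in 38% of all. The glucocorticoid response element, searched as a full palindrome, matched in none of the 18 members and in 0.151% of all promoters. At so low a share a match among 18 promoters would be rare, so its absence says little about these members. Bases farther than 250 from the start were not searched. A member with several promoters was counted if any of them matched, whereas the percentages are of single promoters. The counts of members are therefore not strictly comparable to the percentages. A match is a match of letters only, and the members with a κB match were among those called higher, called lower and not called between the lines under vehicle.

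The members differed widely in level. Per kilobase of the GENCODE v44 canonical transcript, and averaged over the 12 libraries, the highest were CSF3 (3887 normalized counts per kb), IL18 (2667), LIF (1744), CSF1 (1124) and IL1B (1108). CCL26 (439), CCL24 (433), CXCL8 (314) and CSF2 (306) followed, and the lowest were CXCL16 (23.6), IL16 (18.7) and IL24 (12.2). The order differed between groups. IL18 was above CSF3 in wt-GR vehicle (3181 against 2945) and wt-GR TGFβ1 (2600 against 2317), CSF1 was above LIF in wt-GR vehicle (2025 against 1961), and IL1B was above CSF1 in both TGFβ1 groups (1384 against 745 in wt-GR, 842 against 570 in S134A-GR). Neighbours in the pooled order were often closer than their spread over libraries, as with CSF1 (SD 587) and IL1B (SD 315), or CCL26 (SD 112) and CCL24 (SD 74.9). The order also depends on the length used, since reads were counted per gene and annotated exons can exceed the canonical transcript. IL18 has 1115 canonical and 2605 exonic bases and CCL26 475 and 703, whereas LIF has 3871 of both. An order by exonic length was not made. Of the members below a mean of 20, IL34, CXCL14, IL12B, IL37 and CXCL17 had means of 5.92 to 15.7 normalized counts. The other 19 were below 5, among them CCL2, CXCL10, CXCL12 and CX3CL1, and at these depths they were not measurable by fold change. IL11, a TGFβ1-responsive cytokine that the rule leaves out, had group means of 5177 in wt-GR vehicle, 12070 in wt-GR TGFβ1, 3020 in S134A-GR vehicle and 5945 in S134A-GR TGFβ1.

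The first comparison asked how the basal level of these genes differed between the lines. Under vehicle, 18 of the 25 members differed at an adjusted p under 0.05 (limma, fitted to log2 values with a pseudocount of 1, adjusted over 18579 genes), 6 higher and 12 lower in S134A-GR than in wt-GR cells. The shares were 24% higher and 48% lower. Of the 14425 tested genes with the same minimum level, 30% were called higher and 31.8% lower, so most genes at this level differed between these clones and a call by itself says little about a member. The median size of the log2 difference was 0.48 in the members and 0.26 in those genes. Under TGFβ1, 14 members were called, 6 higher and 8 lower, against a background of 28% higher and 30.7% lower. The call was made in the same direction under both treatments for 13 members (CCL24, CCL26, CSF1, CSF3, CXCL1, CXCL16, CXCL2, IL16, IL17D, IL18, IL1B, IL6 and LIF). That joint count was not made over all tested genes of this level, so it is not read as a trait of the members.

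**Figure D1:**
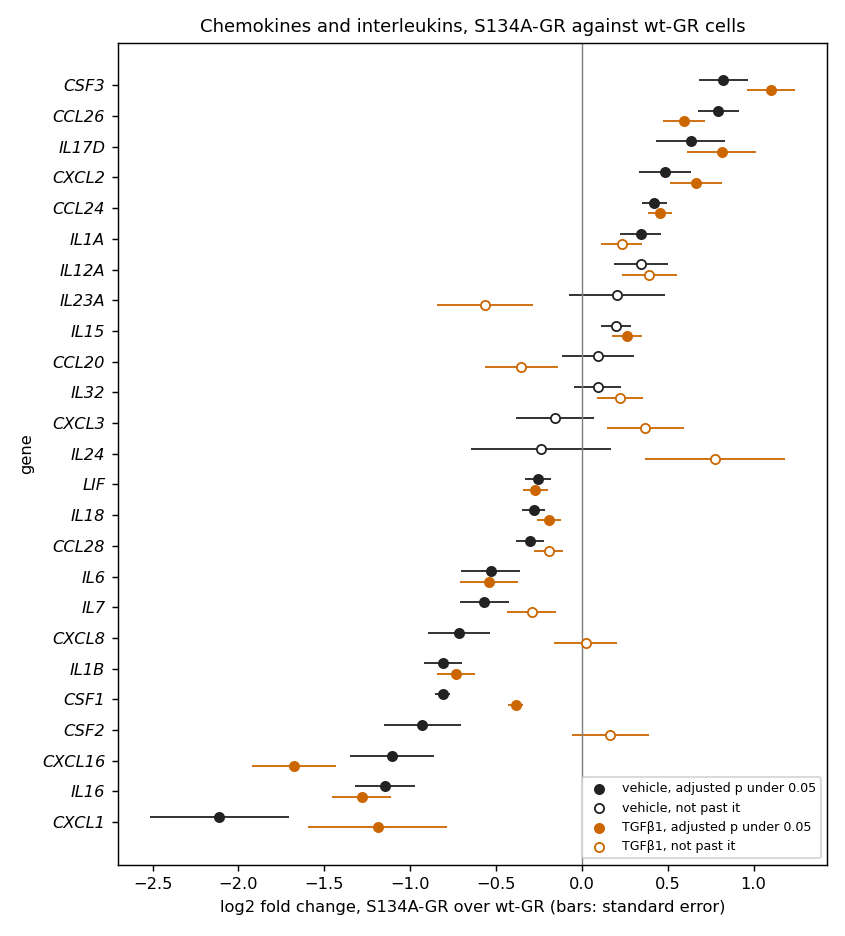
Log2 fold change of each of the 25 members in S134A-GR over wt-GR cells (horizontal axis) under vehicle (black) and TGFβ1 (orange). Points are limma estimates, bars their standard errors, and filled points had an adjusted p under 0.05. CXCL1, IL16 and CXCL16 lie farthest to the left under both treatments, and CSF3 lies farthest to the right under both.

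Among the neutrophil chemokines, CXCL1 (chr4:73869393-73871308) had the largest called line difference of the 25 members under vehicle, and under TGFβ1 CXCL16 and IL16 exceeded it. Its normalized counts were 106, 124 and 96.9 in wt-GR vehicle, 24.5, 40.6 and 14.3 in S134A-GR vehicle, 110, 75.4 and 105 in wt-GR TGFβ1, and 20.9, 46.6 and 71.5 in S134A-GR TGFβ1. Every S134A-GR library was below every wt-GR library given the same treatment, and the SDs were 13.3 in S134A-GR and 13.6 in wt-GR under vehicle and 25.3 and 18.7 under TGFβ1. The log2 difference was −2.11 ± 0.40 (SE; adjusted p = 0.000512) under vehicle and −1.19 ± 0.40 (adjusted p = 0.0248) under TGFβ1. The second call was lost, with a smaller difference, without library 1 of S134A-GR TGFβ1 (−0.72, adjusted p = 0.116). It was also lost, with about the same difference, without library 1 (−1.09, adjusted p = 0.0782) or library 3 (−1.12, adjusted p = 0.0718) of wt-GR TGFβ1.

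CXCL8 (chr4:73740519-73743716), a potent neutrophil attractant, was lower in S134A-GR than in wt-GR cells under vehicle, with 373 ± 77.5 (SD, n = 3) against 614 ± 121 normalized counts (log2 −0.72, adjusted p = 0.00432). Under TGFβ1 the lines overlapped, with 545 ± 122 in S134A-GR and 530 ± 58.5 in wt-GR (log2 0.02, adjusted p = 0.936). CXCL2 (chr4:74097040-74099196) was higher in S134A-GR under vehicle, with 263 ± 11.4 against 189 ± 28.2 (log2 0.48, adjusted p = 0.0149), and under TGFβ1, with 280 ± 53.2 against 174 ± 14.6 (log2 0.66, adjusted p = 0.00207). Its call under vehicle was lost without library 1 of wt-GR vehicle (log2 0.40, adjusted p = 0.0575). CXCL3 (chr4:74036589-74038807) overlapped between the lines under both treatments (log2 −0.16 and 0.37, adjusted p = 0.595 and 0.198). The cluster thus held members called in opposite directions. Of all 75-base stretches in their annotated exons, 7.56% in CXCL2 and 4.57% in CXCL3 recur in another of these genes, against 0.233% in CXCL1, so a small part of the CXCL2 and CXCL3 reads cannot be placed with certainty.

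Ratios of genes of the same cluster within a library, chosen after their values were seen and given as a description, show the same contrast without scaling between libraries. CXCL1 to CXCL2 was 0.631, 0.692 and 0.438 in wt-GR vehicle and 0.09, 0.162 and 0.0535 in S134A-GR vehicle. Under TGFβ1 it was 0.579, 0.468 and 0.609 in wt-GR and 0.0952, 0.155 and 0.223 in S134A-GR. No library of either S134A-GR group reached the lowest wt-GR ratio. The ratio of CXCL8 to CXCL2 was 2.83, 3.83 and 3.09 in wt-GR vehicle and 1.26, 1.84 and 1.18 in S134A-GR vehicle. Under TGFβ1 it was 2.74, 2.96 and 3.44 in wt-GR and 2.03, 1.7 and 2.13 in S134A-GR. There CXCL8 itself overlapped between the lines (log2 0.02) and CXCL2 was higher in S134A-GR (log2 0.66), so opposite directions of these genes were seen under vehicle only.

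**Figure D2:**
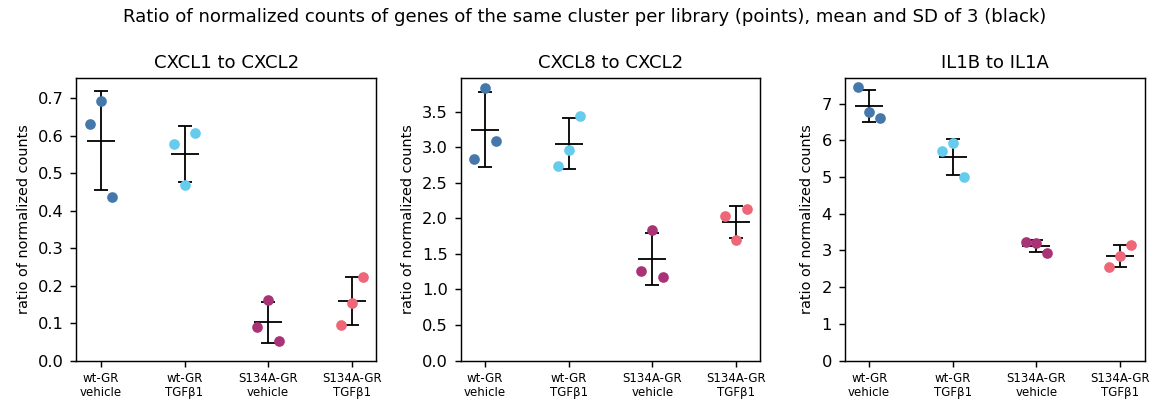
Ratio of normalized counts of 2 genes of the same cluster in each library (points), with mean and SD of the 3 libraries of a group (black), for CXCL1 to CXCL2, CXCL8 to CXCL2 and IL1B to IL1A. In all 3 panels the S134A-GR libraries lie below the wt-GR libraries.

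CXCL16, the ligand of CXCR6 that is made as a membrane-bound chemokine, was the remaining CXC member above the minimum level (chr17:4733533-4739928). Its normalized counts were 68.4, 87.7 and 77.9 in wt-GR vehicle, 39.6, 33.5 and 33.9 in S134A-GR vehicle, 68.9, 77.6 and 94.7 in wt-GR TGFβ1, and 30.4, 28.4 and 16.5 in S134A-GR TGFβ1. All 6 S134A-GR libraries were below all 6 wt-GR libraries. The log2 difference was −1.11 ± 0.25 (adjusted p = 0.00169) under vehicle and −1.68 ± 0.25 (adjusted p = 5.86e-05) under TGFβ1, and neither call was lost in any of the 21 alternatives. Of its exonic bases, 6.16% are shared with MED11 and ZMYND15 on the opposite strand.

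The CC chemokines CCL24 and CCL26, ligands of the eosinophil receptor CCR3, are neighbours on chromosome 7 and both were higher in S134A-GR cells. CCL26 had 264 ± 4.53 normalized counts in S134A-GR vehicle against 153 ± 23.4 in wt-GR vehicle (log2 0.80, adjusted p = 6.96e-05), and 251 ± 12.1 against 166 ± 7.6 under TGFβ1 (log2 0.60, adjusted p = 0.000896). CCL24 had 744 ± 29.2 against 554 ± 8.66 (log2 0.42, adjusted p = 0.000209), and 674 ± 49.0 against 491 ± 17.7 under TGFβ1 (log2 0.46, adjusted p = 0.000122). Neither gene overlapped between the lines under either treatment. CCL28, a chemokine of mucosal epithelia, was lower in S134A-GR under vehicle (811 ± 83.5 against 999 ± 79.5, log2 −0.30, adjusted p = 0.00752) and missed the threshold under TGFβ1 (log2 −0.19, adjusted p = 0.0712), where DESeq2 (adjusted p = 0.0415), a fit to only the groups compared (adjusted p = 0.0415) and fits without library 1 of wt-GR TGFβ1 (−0.24) or of S134A-GR vehicle (adjusted p = 0.041) called it. Within 1 Mb of CCL26, 23 other tested genes had a median log2 difference of 0.13 under vehicle, with 8 higher and 5 lower. Over all tested genes of this level 30% were higher and 31.8% lower.

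All 3 colony stimulating factors differed under vehicle, and not in the same direction. CSF3, the growth factor of neutrophils, had 3831, 4536 and 4921 normalized counts in wt-GR vehicle and 8080, 7811 and 7526 in S134A-GR vehicle. Under TGFβ1 it had 3493, 3448 and 3512 in wt-GR and 5619, 7642 and 9738 in S134A-GR. Every S134A-GR library was above every wt-GR library, and the S134A-GR TGFβ1 libraries were spread widely. The log2 difference was 0.82 ± 0.14 (adjusted p = 0.000198) under vehicle and 1.10 ± 0.14 (adjusted p = 1.58e-05) under TGFβ1. CSF1, the growth factor of macrophages, was lower in S134A-GR by −0.81 ± 0.04 (log2, adjusted p = 2.77e-09) under vehicle and by −0.39 ± 0.04 (adjusted p = 4.2e-06) under TGFβ1, and its libraries are given with the TGFβ1 response. CSF2, which acts on granulocytes and macrophages, was lower under vehicle, with 165 ± 7.0 against 318 ± 60.0 (log2 −0.93, adjusted p = 0.00304), and overlapped under TGFβ1, with 259 ± 96.8 against 222 ± 42.2 (log2 0.17, adjusted p = 0.578).

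Of the interleukin-1 family, IL1B was lower and IL1A higher in S134A-GR cells under vehicle, and the genes lie side by side on chromosome 2. IL1B, the secreted inflammatory form, had 1207 ± 86.7 normalized counts in S134A-GR vehicle against 2117 ± 227 in wt-GR vehicle (log2 −0.81, adjusted p = 2.58e-05), and 1269 ± 233 against 2086 ± 21.0 under TGFβ1 (log2 −0.73, adjusted p = 6.89e-05). IL1A, which signals through the same receptor, had 387 ± 11.6 against 307 ± 49.2 (log2 0.34, adjusted p = 0.0266). That call was lost without library 1 of wt-GR vehicle (log2 0.20, adjusted p = 0.13), without library 1 (adjusted p = 0.0572) or 2 (adjusted p = 0.0743) of S134A-GR vehicle, and with only the groups compared in the fit (adjusted p = 0.061). Under TGFβ1 IL1A had a log2 difference of 0.23 (adjusted p = 0.128). The ratio of IL1B to IL1A, a description as above, was 7.44, 6.76 and 6.62 in wt-GR vehicle, 5.71, 5.92 and 4.99 in wt-GR TGFβ1, 3.23, 3.19 and 2.94 in S134A-GR vehicle and 2.54, 2.85 and 3.14 in S134A-GR TGFβ1, so the lines did not overlap. IL18 was lower in S134A-GR by −0.28 (log2, adjusted p = 0.00305) under vehicle and by −0.19 (adjusted p = 0.0309) under TGFβ1, and the second call was lost without library 2 (adjusted p = 0.0978) or 3 (adjusted p = 0.125) of wt-GR TGFβ1 or library 3 of S134A-GR TGFβ1 (adjusted p = 0.123). Of the 12 tested genes within 1 Mb of IL18, 10 were also lower in S134A-GR vehicle (median log2 −0.60), against 31.8% of all tested genes of this level.

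IL6 and LIF, which signal through the shared receptor chain IL6ST, were both lower in S134A-GR cells. IL6 had 85.5 ± 13 normalized counts in S134A-GR vehicle against 124 ± 23.0 in wt-GR vehicle (log2 −0.53, adjusted p = 0.0174), and 89.7 ± 3.5 against 131 ± 12.2 under TGFβ1 (log2 −0.54, adjusted p = 0.017). The call under vehicle was lost without library 3 of wt-GR vehicle (adjusted p = 0.0891), without library 1 of S134A-GR vehicle (adjusted p = 0.0771) and with only the groups compared (adjusted p = 0.053), and that under TGFβ1 without library 2 of wt-GR TGFβ1 (adjusted p = 0.0678). LIF had 6353 ± 220 against 7590 ± 403 (log2 −0.26, adjusted p = 0.00938), and 5938 ± 762 against 7128 ± 235 under TGFβ1 (log2 −0.27, adjusted p = 0.00698). Opposite-strand genes share 9.9% of the exonic bases of IL6. Without library 1 of S134A-GR TGFβ1 the last LIF difference was −0.16 (adjusted p = 0.0187).

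IL16, a ligand of CD4 that draws T cells, had 264, 309 and 270 normalized counts in wt-GR vehicle, 146, 123 and 111 in S134A-GR vehicle, 194, 222 and 250 in wt-GR TGFβ1, and 70.4, 93.2 and 112 in S134A-GR TGFβ1. The S134A-GR libraries were all below the wt-GR libraries, by −1.15 ± 0.17 (log2, adjusted p = 6.89e-05) under vehicle and −1.28 ± 0.17 (adjusted p = 2.73e-05) under TGFβ1. STARD5 and another gene share 35.5% of the exonic bases of IL16 on the opposite strand, and the strand setting of the counting is not given in the sources used here, so reads of the overlapping genes cannot be told apart. IL17D was higher in S134A-GR, with 115 ± 26.7 against 72.8 ± 5.86 under vehicle (log2 0.63, adjusted p = 0.0164) and 118 ± 15.6 against 66.9 ± 13 under TGFβ1 (log2 0.82, adjusted p = 0.00371). Its call under vehicle was lost without library 2 of S134A-GR vehicle (adjusted p = 0.0873) or of wt-GR vehicle (adjusted p = 0.0556), and an opposite-strand gene shares 36.3% of its exonic bases. Of the 15 tested genes within 1 Mb of IL17D, 14 were lower in S134A-GR vehicle, with a median of −0.59, opposite to IL17D. Over all tested genes of this level 31.8% were lower and 30% higher. Other windows were lopsided too, with 5 of 6 genes lower and 0 higher near CCL20. Near IL32, 41 of 59 were higher and 3 lower, and CCL20 and IL32 each had a log2 difference of 0.09.

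Among the lymphocyte growth factors, IL7 was lower in S134A-GR vehicle, with 196 ± 15.2 against 291 ± 18.5 normalized counts (log2 −0.57, adjusted p = 0.00418), and missed the threshold under TGFβ1 (log2 −0.29, adjusted p = 0.112), where it was called without library 2 of wt-GR TGFβ1 (−0.42, adjusted p = 0.0299) or library 1 of S134A-GR TGFβ1 (−0.40, adjusted p = 0.0458). Of its exonic bases, 16.3% lie opposite other genes. IL15 was called under TGFβ1, with 432 ± 39.1 in S134A-GR against 360 ± 25.4 in wt-GR (log2 0.26, adjusted p = 0.0242). That call was lost in 5 of 21 alternatives, namely without library 1 (adjusted p = 0.0776) or 3 (adjusted p = 0.0775) of wt-GR TGFβ1, without library 1 (adjusted p = 0.0591) or 2 (adjusted p = 0.106) of S134A-GR TGFβ1, and with only the groups compared (adjusted p = 0.0616). Under vehicle IL15 had a log2 difference of 0.20 (adjusted p = 0.0777). IL12A and IL23A, subunits of heterodimeric cytokines, were called in neither line comparison (IL12A log2 0.34 and 0.39, adjusted p = 0.0859 and 0.0533, IL23A log2 0.21 and −0.56, adjusted p = 0.572 and 0.115). Under TGFβ1 IL12A was called higher in S134A-GR by edgeR (adjusted p = 0.045), DESeq2 (adjusted p = 0.0412), after TMM scaling (adjusted p = 0.0492), with a pseudocount of 16 (adjusted p = 0.0482), with filterByExpr (adjusted p = 0.0393), and without library 1 of wt-GR vehicle (adjusted p = 0.0485) or of S134A-GR TGFβ1 (adjusted p = 0.0169). IL23A was called lower without library 2 of S134A-GR TGFβ1 (−0.81, adjusted p = 0.0353).

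**Figure D3:**
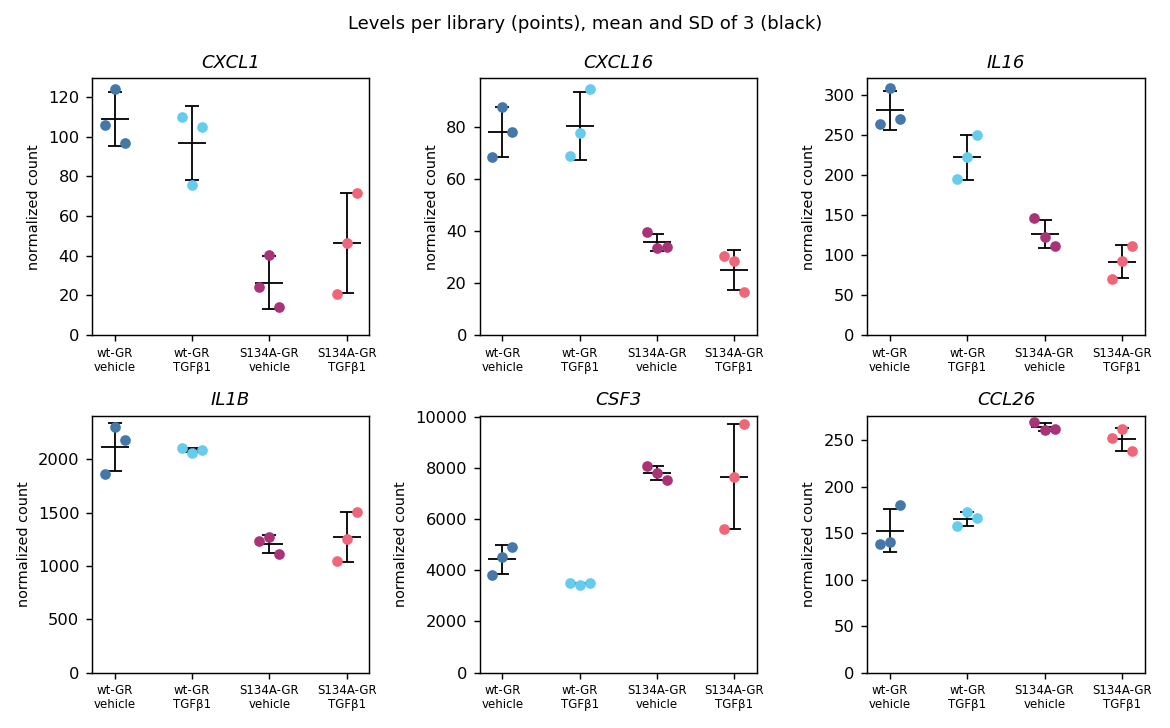
Normalized counts of CXCL1, CXCL16, IL16, IL1B, CSF3 and CCL26 in each library (points) of the 4 groups, with mean and SD of 3 (black). The S134A-GR libraries lie below the wt-GR libraries of the same treatment for CXCL1, CXCL16, IL16 and IL1B and above them for CSF3 and CCL26.

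The next comparison asked how the members responded to TGFβ1 in each line. In wt-GR cells 5 of 25 members were called, CCL20 and IL32 higher and CSF1, IL24 and IL18 lower, against a background of 14% higher and 12.1% lower among the tested genes of this level. In S134A-GR cells 3 were called, CCL20 and IL32 higher and CSF1 lower, against 12.7% and 10.8%. CCL20, IL32 and CSF1 were thus called in the same direction in both lines, and 20 members were called in neither. These joint counts were not made over all tested genes either, so they are not read as a trait of the members. The count in S134A-GR cells was 6 without library 1 of S134A-GR TGFβ1, where CSF2 (log2 0.84, adjusted p = 0.0103), CXCL1 (log2 1.22, adjusted p = 0.0337) and CXCL8 (log2 0.67, adjusted p = 0.029) were also called higher, and 5 without library 1 of wt-GR vehicle, where CXCL8 (adjusted p = 0.0265) and IL18 (adjusted p = 0.0219) were called.

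**Figure D4:**
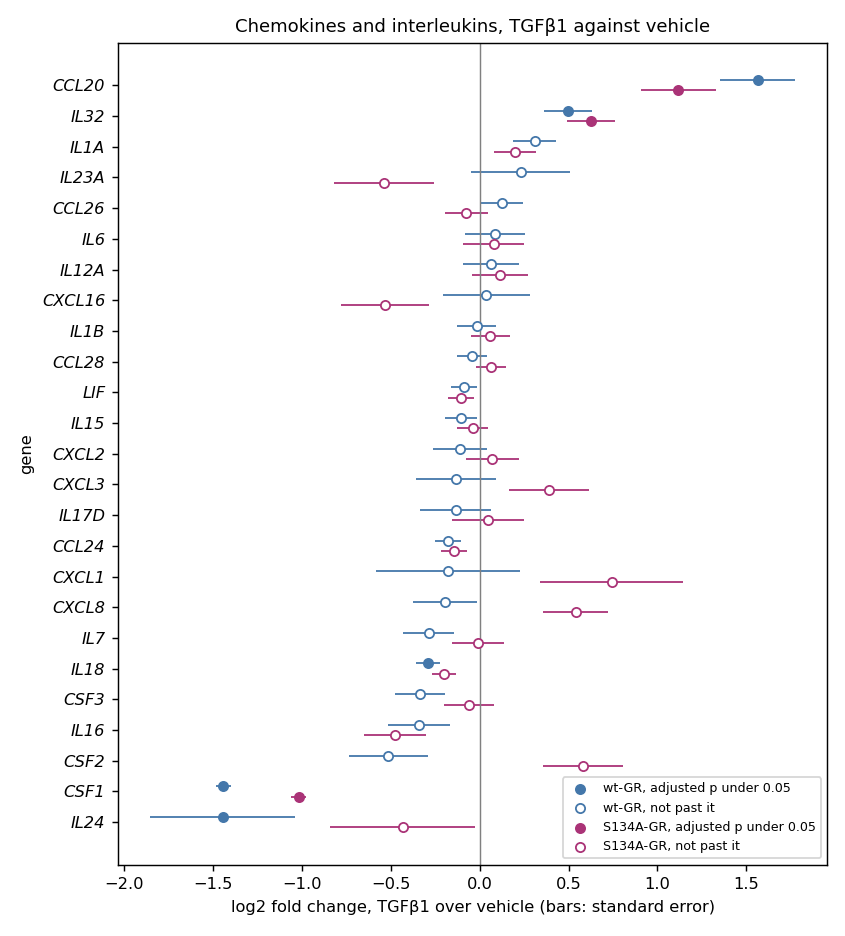
Log2 fold change of each of the 25 members with TGFβ1 over vehicle (horizontal axis) in wt-GR (blue) and S134A-GR (purple) cells. Points are limma estimates, bars their standard errors, and filled points had an adjusted p under 0.05. CCL20 and IL32 lie to the right and CSF1 to the left in both lines.

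CSF1 (chr1:109910242-109930992) gave the clearest response, a fall in both lines. It had 8124, 8068 and 8067 normalized counts in wt-GR vehicle and 3034, 2842 and 3051 in wt-GR TGFβ1. In S134A-GR cells it had 4635, 4518 and 4682 under vehicle and 2177, 2261 and 2394 under TGFβ1. No group overlapped another, and the wt-GR vehicle libraries stood far above the rest. The log2 change was −1.44 ± 0.04 (adjusted p = 2.51e-11) in wt-GR and −1.02 ± 0.04 (adjusted p = 8.18e-10) in S134A-GR cells.

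CSF1R, the receptor of CSF1, moved the other way. It had 935, 961 and 959 normalized counts in wt-GR vehicle and 2502, 2355 and 2572 in wt-GR TGFβ1, and 951, 867 and 833 in S134A-GR vehicle and 1734, 1784 and 1603 in S134A-GR TGFβ1. Each line rose with TGFβ1 without overlap, by 1.38 ± 0.06 (log2, adjusted p = 1.37e-09) in wt-GR and, for S134A-GR libraries, by 0.95 ± 0.06 (adjusted p = 8.47e-08). The ratio of CSF1 to CSF1R went from a mean of 8.50 to 1.20 in wt-GR and from 5.24 to 1.34 in S134A-GR libraries.

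CCL20 (chr2:227805739-227817564), the ligand of CCR6 on lymphocytes and dendritic cells, had 24.4, 31.7 and 25.3 normalized counts in wt-GR vehicle and 72.2, 87.1 and 86.6 in wt-GR TGFβ1. In S134A-GR cells it had 33.0, 23.3 and 31.2 under vehicle and 60.9, 62.8 and 68.0 under TGFβ1. All TGFβ1 libraries were above all vehicle libraries. CCL20 rose by 1.56 ± 0.21 (log2, adjusted p = 9.62e-05) in wt-GR and in S134A-GR cells by 1.12 ± 0.21 (adjusted p = 0.00177). IL32, an inflammatory cytokine without a close relative, rose from 114 ± 8.82 to 162 ± 13.4 in wt-GR (log2 0.50, adjusted p = 0.0181) and from 122 ± 7.02 to 189 ± 22.7 in S134A-GR cells (log2 0.63, adjusted p = 0.00482). The wt-GR call of IL32 was lost without library 1 (adjusted p = 0.0592) or 2 (adjusted p = 0.0572) of wt-GR vehicle, or library 1 (adjusted p = 0.0698) or 2 (adjusted p = 0.0571) of wt-GR TGFβ1.

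IL24, a low member of the IL10 family, had 32.6, 28.5 and 39.0 normalized counts in wt-GR vehicle and 14.4, 19.8 and 5.09 in wt-GR TGFβ1, the one group of any of the 25 members with a mean below 20. In S134A-GR cells it had 22.6, 22.3 and 42.8 under vehicle and 20.9, 20.3 and 20.03 under TGFβ1. IL24 fell in wt-GR cells by 1.45 on the log2 scale (SE 0.41, adjusted p = 0.0211). In S134A-GR cells the change was −0.43 (adjusted p = 0.537). The difference between these responses was 1.015 ± 0.58 (limma adjusted p = 0.618), so they were not told apart. The wt-GR call was lost without library 3 of wt-GR TGFβ1 (−0.93, adjusted p = 0.0798), without library 3 of wt-GR vehicle (adjusted p = 0.0552) and with only the groups compared (adjusted p = 0.0825), and FCMR shares 41.6% of the exonic bases of IL24 on the opposite strand. IL18 fell in wt-GR cells from 3547 ± 311 to 2899 ± 207 (log2 −0.29, adjusted p = 0.00718), and in S134A-GR cells it had 2913 ± 112 and 2536 ± 122 (log2 −0.20, adjusted p = 0.0556). The IL18 responses of the lines differed by 0.09 ± 0.10 (limma adjusted p = 0.803) and were not told apart either.

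**Figure D5:**
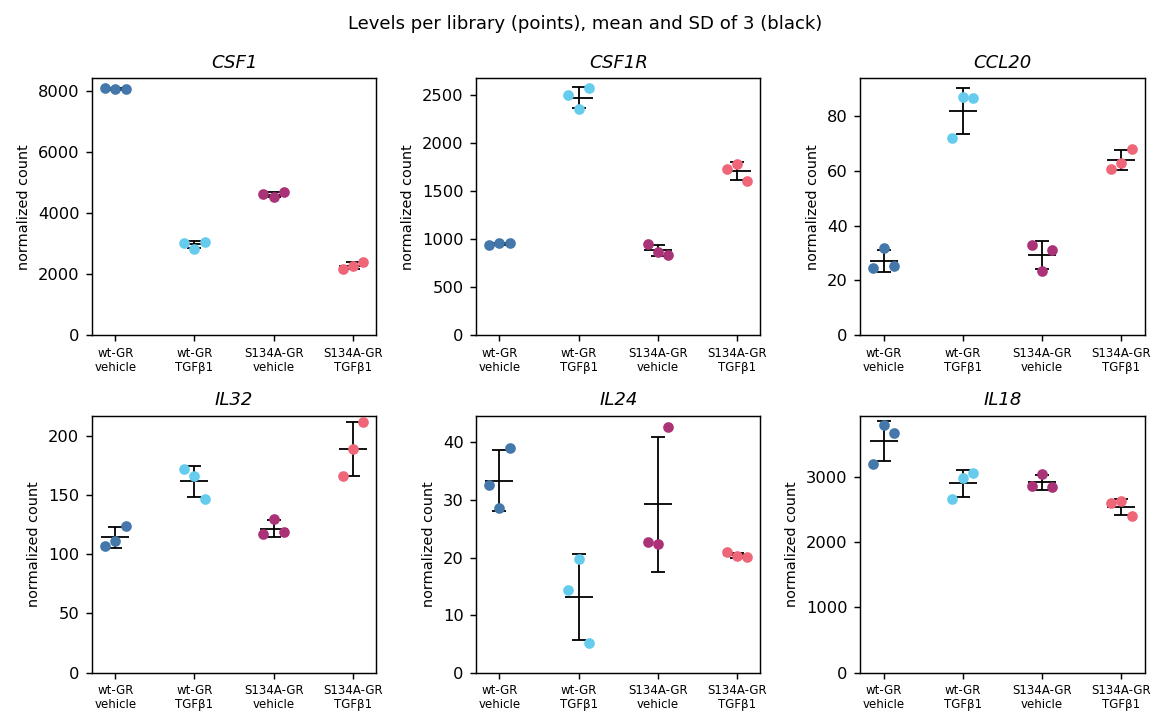
Normalized counts of CSF1, its receptor CSF1R, CCL20, IL32, IL24 and IL18 in each library (points) of the 4 groups, with mean and SD of 3 (black). CSF1 is lower and CSF1R, CCL20 and IL32 are higher with TGFβ1 in both lines.

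The last comparison tested whether the TGFβ1 response differed between the lines. CSF1 was the one member called, with a difference of 0.42 ± 0.06 (log2, S134A-GR response minus wt-GR response, adjusted p = 0.0087), which is a smaller fall in S134A-GR cells. Among tested genes of this level 0.208% had a called difference above 0 and 0.319% had one below 0. CSF1 was also called in all 20 alternatives run for it (log2 0.39 to 0.46). CXCL8 (0.74 ± 0.26, adjusted p = 0.371) and CSF2 (1.10 ± 0.32, adjusted p = 0.261) were under 0.05 before adjustment, and of these DESeq2 called CSF2 (1.18, adjusted p = 0.0157). CCL20 had a difference of −0.45 ± 0.30 (adjusted p = 0.674), so the sizes of its rise in the lines were not told apart. For CSF1R the difference was −0.43 ± 0.09 (adjusted p = 0.0577).

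Receptors and signalling genes of these cytokines were read from lists chosen with earlier results known. Of 23 chemokine receptors, 19 were among the symbols and 4 reached the minimum level, and under vehicle 2 were higher and 1 lower in S134A-GR, with the same counts under TGFβ1 (background 30% and 31.8%, and 28% and 30.7%). With TGFβ1, 1 rose and 2 fell in wt-GR cells, and 1 rose and 3 fell in S134A-GR cells (background 14% and 12.1%, and 12.7% and 10.8%). ACKR3, a scavenging receptor of CXCL12, had 6.52, 4.23 and 4.21 normalized counts in wt-GR vehicle, 24.4, 29.3 and 29.5 in wt-GR TGFβ1, 43.4, 38.5 and 33.9 in S134A-GR vehicle and 103, 88.1 and 82.3 in S134A-GR TGFβ1. It was higher in S134A-GR by 2.74 ± 0.25 under vehicle (log2, adjusted p = 5.41e-07) and rose with TGFβ1 by 2.28 ± 0.25 in wt-GR (adjusted p = 1.21e-05) and 1.22 ± 0.25 in S134A-GR (adjusted p = 0.00317). The difference between these responses was −1.06 ± 0.35 (adjusted p = 0.355), so the sizes of the rise were not told apart. The mean of ACKR3 over all libraries rests mostly on the S134A-GR groups. Its wt-GR vehicle values lie close to the level that 3 reads give.

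Of 39 receptors of interleukins, LIF and the CSFs, 24 reached the level. Under vehicle 6 were higher and 13 lower in S134A-GR, and under TGFβ1 5 and 13, where the background was 30% and 31.8%, and 28% and 30.7% (median log2 −0.20 and −0.19, against 0.00 and 0.01 over all tested genes of this level). The TGFβ1 response was called higher for 5 and lower for 4 in wt-GR, and for 6 and 5 in S134A-GR cells, beside a background of 14% and 12.1%, and 12.7% and 10.8%. IL2RB, a chain of the receptors for IL2 and IL15, was far apart, with 888 ± 81.3 in wt-GR vehicle against 77.4 ± 6.05 in S134A-GR vehicle (log2 −3.50, adjusted p = 1.41e-10). IL21R was lower as well (97.9 ± 18.1 against 33.0 ± 14.3, log2 −1.63, adjusted p = 0.00111). Of 6 decoys and inhibitors 3 reached the level, and 2 were higher in S134A-GR under each treatment (background 30% and 28%). In wt-GR cells 1 of them fell with TGFβ1, and in S134A-GR cells 1 rose and 1 fell (background 12.1%, and 12.7% and 10.8%). IL13RA2, the decoy receptor of IL13, had 27830 ± 539 in S134A-GR vehicle against 14740 ± 437 in wt-GR vehicle (log2 0.92, adjusted p = 1.52e-08) and differed by 1.10 under TGFβ1 (adjusted p = 2.94e-09).

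Of 25 signal transducers 24 reached the level, with 5 higher and 13 lower in S134A-GR under vehicle (background 30% and 31.8%) and 5 and 11 under TGFβ1 (28% and 30.7%). The TGFβ1 response was called higher for 3 and lower for 8 in wt-GR (background 14% and 12.1%), and for 3 and 6 in S134A-GR cells (12.7% and 10.8%). STAT4, which carries IL12 signals, had 24.4, 42.3 and 23.2 normalized counts in wt-GR vehicle, 35.6, 31.5 and 35.7 in wt-GR TGFβ1, 37.7, 33.5 and 30.3 in S134A-GR vehicle and 19.97, 13.2 and 13.6 in S134A-GR TGFβ1. The 3 S134A-GR TGFβ1 libraries were below all others. STAT4 fell with TGFβ1 in S134A-GR cells by 1.09 on the log2 scale (adjusted p = 0.0146), and the difference between the responses was −1.33 (adjusted p = 0.283).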

How the data were processed

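TruSeq RNA libraries, 3 in each of 4 groups, were read as pairs of 75 bases. Reads were trimmed (Trimmomatic), mapped to hg38 (HISAT2) and counted per gene (featureCounts) by the authors, who divided the counts by DESeq2 size factors, so the deposited signal is a normalized count per gene symbol. The annotation, the strand setting, the aligner's version and whether a pair counted once are not given in the sources used here. In every library 100% of the deposited values were whole multiples of 1 read (tolerance 0.01), which gave the recovered reads. Genes with at least 10 recovered reads in all (18579) were fitted as log2 of the normalized count plus 1 with limma 3.58.1 (R 4.3.3; group means, trend, Benjamini-Hochberg adjustment), and this scale understates changes of low genes. A call is an adjusted p under 0.05 at any fold. The plan assumed counts and edgeR's quasi-likelihood test; since the values are normalized, the recovered reads were tested with edgeR 4.0.16 and DESeq2 1.42.0 as alternatives, and the script was tested on simulated data.

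Positions and exon overlaps come from GENCODE v44 (GRCh38) and promoters from RefSeq (GRCh38.p14); CSF1, CSF3, CXCL16, IL15, IL18, IL7 and LIF had no promoter entry. The members and lists were chosen with earlier results of these data known. Members with a mean of at least 20 were named, with library values for those called at an absolute log2 change of 1 or more and for those called in the difference in response, and genes of the receptor and signalling lists were named by the same fold and level. Other alternatives were TMM scaling, pseudocounts of 0.5 and 16, filterByExpr, no filter, minimum means of 10 and 50, a replicate block, only the groups compared, and each library left out.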

Additional observations from a re-analysis of the deposited data

Results flagged for a closer look

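CSF1 was the one member whose TGFβ1 response was tested as different between the lines. The fall was 0.42 smaller on the log2 scale in S134A-GR than in wt-GR cells (SE 0.06, limma adjusted p = 0.0087), and the responses were −1.02 and −1.44. All 3 libraries of each TGFβ1 group were below all 3 vehicle libraries of the same line. The S134A-GR cells started from a lower level, with 4612 ± 84.7 (SD, n = 3) against 8086 ± 32.8 normalized counts under vehicle, and the lines had 2277 ± 110 and 2976 ± 116 under TGFβ1.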

How the results depend on the processing

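No called direction was reversed in any alternative, TMM scaling included. Of 41 calls of a member in a comparison, 31 were kept in every alternative run and 10 were lost in at least 1 of them, and each of the 10 is given with its values in the report. Of the 84 results not called, 12 were called in at least 1 alternative. Those gained by leaving out 1 library and not given in the report were IL24 between the lines under TGFβ1 (without library 2 of wt-GR TGFβ1, adjusted p = 0.0408), CSF3 in wt-GR cells (without library 1 or 3 of S134A-GR TGFβ1, 0.0141 and 0.0294), and in S134A-GR cells IL16 (without library 3 of S134A-GR TGFβ1, 0.0269), IL18 (without library 1 of wt-GR TGFβ1, 0.0432) and CXCL8 (without library 3 of wt-GR vehicle, 0.0476, or library 2 of S134A-GR vehicle, 0.0226). Members called between the lines under vehicle numbered 18, and 16 to 18 with a library left out. Under TGFβ1 they numbered 14, and 11 to 15 with a library left out, the lowest without library 3 of wt-GR TGFβ1. TGFβ1 responses numbered 5 in wt-GR cells (4 to 6 with a library left out) and 3 in S134A-GR cells (3 to 6). DESeq2 gave 6 responses in S134A-GR cells, adding CSF2, CXCL8 and IL18, and 2 differences in response where limma gave 1, adding CSF2. The pseudocount of 16 brought the fall of IL24 in wt-GR cells to −0.79 (adjusted p = 0.0121).

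The replicate block gave 6 responses in S134A-GR cells in place of 3, adding CSF2, CXCL8 and IL18, and it called CCL28 between the lines under TGFβ1 (adjusted p = 0.0423). Over 12468 genes, deviations from the group means in libraries with the same number had a mean r of 0.00089 over 18 pairs (−0.155 to 0.154). Those with other numbers had a mean of −0.00032 over 36 pairs, which centring on the group means ties to the first value. The mean r gave no sign of pairing by number, and pairing within single groups or genes was not tested.

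Depth limits the 19 members below a mean of 5, and exonic overlap or shared sequence limits IL16, IL17D, IL24, IL7, IL6, CXCL2 and CXCL3 most.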

Other observations

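Single libraries stood at the edge of their group for many members. In wt-GR vehicle, library 1 was the lowest for 19 of 25 members, and it was the lowest for 40.2% of the 14425 tested genes of this level. In S134A-GR TGFβ1, library 1 was the lowest for 15 of 25 members (33.3% of tested genes) and library 3 the highest for 15 of 25 (29.9% of tested genes). The members highest in that library 3 were CCL20, CSF1, CSF2, CSF3, CXCL1, CXCL2, CXCL3, CXCL8, IL12A, IL16, IL1A, IL1B, IL32, IL6 and LIF. CSF3 ran from 5619 to 9738 normalized counts over these 3 libraries, CSF2 from 171 to 363 and CXCL1 from 20.9 to 71.5. The members share these libraries and are not independent of each other, and the pattern was noticed after the values were seen and was not tested.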
